A study of Mus musculus with 4 samples.

Results

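The cytosolic ribosome of the mouse is built from ribosomal RNA and a fixed set of proteins, and the genes of those proteins, named Rpl for the large (60S) subunit and Rps for the small (40S) subunit, are described here in airway epithelial cells. Members were the rows of the deposited table with a symbol of the form Rpl or Rps and a number, with or without an ending a, x, y, l or l1, together with Rpsa, Rplp0, Rplp1 and Rplp2, and without rows marked as pseudogenes by "-ps". The rule gave 85 of the 25124 genes listed, 53 of the large and 32 of the small subunit. Of these, 81 reached a mean of 25.8 normalised reads over the 4 libraries, the value of 1 CPM (a count scaled to a library of fixed size), and were tested. They were all 32 small subunit genes and 49 of the large subunit genes. Nearest to that floor in normalised reads were Rps4l above it, with a mean of 294, and Rpl3l below it, with a mean of 12.

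RNA sequencing was done on airway epithelial cells that had been sorted by flow cytometry from the lungs of wild-type C57BL/6 mice exposed to house dust mite (HDM), an allergen that provokes asthma-like airway inflammation. The SCD1 inhibitor group (2 samples) had HDM and an inhibitor of stearoyl-CoA desaturase 1, the enzyme that makes monounsaturated fatty acids. The DMSO group (2 samples) had HDM and the solvent alone, so both groups carry the HDM exposure. The labels give neither the ages nor the compound or dose, and do not say that the samples came from separate animals, so p-values measure the spread between these samples, which may be technical.

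Ribosomal protein genes are transcribed together in large amounts, and their mRNAs carry at the cap a run of pyrimidines, the terminal oligopyrimidine (TOP) motif. Through that motif mTORC1, a kinase that senses nutrients, and LARP1, a cap-binding protein, control how strongly the mRNAs are translated and how long they last. Several ribosomal proteins have paralogs that are expressed in few tissues, and a few have roles outside the ribosome.

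Reads assigned to genes numbered 27013663 and 24591122 with the inhibitor, and 26766159 and 25908728 with DMSO. All 8 pan-epithelial markers were tested, and their summed level was 103562 and 107794 normalised reads with the inhibitor against 107527 and 108477 with DMSO. T and NK cell markers (7 listed) summed to at most 69.8 and red blood cell markers (5 listed) to at most 18.2 normalised reads in any library, and none was tested. Markers that passed the test between the groups, all lower with the inhibitor, were 6 of 8 of goblet, 4 of 8 of club and 4 of 8 of alveolar type 2 cells, with 1 of 7 tested of alveolar type 1 and 1 of 3 tested of B cells. Goblet cell markers summed to 19157 and 37168 with the inhibitor against 106489 and 80913 with DMSO, and alveolar type 2 markers to 294777 and 243183 against 376351 and 425839. Club cell markers summed to 669907 and 449563 against 728090.1 and 640450.3, while ciliated cell markers (8) summed to 499511 and 519187 against 500267 and 517785. Basal cell markers (5 of 7 tested, none past the test) summed to 923 and 3084 against 5244 and 3898. In the summed levels of other lists 1 DMSO library stood apart. The sum of 8 endothelial markers was 2744 and 3895 with the inhibitor against 2685 and 8294 with DMSO, and 7 of the 8 were higher in DMSO replicate 2 than in replicate 1. Myeloid markers (7 of 11 tested) summed to 3610.0 and 2552 against 3482 and 5376, with DMSO replicate 2 again the highest. Most of each sum was Lyz1, at 2313 and 1986 against 2893 and 4218. Of the other tested myeloid markers, Adgre1 and Siglecf were highest in DMSO replicate 2. Ptprc, Itgax, Csf1r and Mrc1 were highest in inhibitor replicate 1. Fibroblast and smooth muscle markers (7 of 8 tested) summed to 5176 and 4425 against 2228 and 5099, with DMSO replicate 1 the lowest. Rn45s, the ribosomal RNA precursor, was at 19478 and 24966 normalised reads with the inhibitor against 24308 and 77528 with DMSO. The part of any of these in the results below was not tested.

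The TOP motif is defined by letters at the transcription start, so the start sequences of 8 of the members described below are shown first. Of these, 4 have a run at the annotated first base, 2 have a run just after it and 2 have none that begins within 10 bases of it. RefSeq promoter entries (GRCm38.p6, the assembly also called mm10) were found for 64 of the 85 members. Each line gives the gene and the 30 bases from 10 before the annotated start to the 20th transcribed base, 5′ to 3′ on the gene's strand. Capitals mark the longest run of C and at least 4 further pyrimidines that begins within 10 bases of the start. Other such runs are left in lower case.
Rpl38: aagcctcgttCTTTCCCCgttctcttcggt
Rpl15: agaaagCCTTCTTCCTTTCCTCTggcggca
Rps27: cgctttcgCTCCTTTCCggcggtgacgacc
Rplp2: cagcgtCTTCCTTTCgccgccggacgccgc
Rpl12: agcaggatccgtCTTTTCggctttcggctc
Rpl22l1: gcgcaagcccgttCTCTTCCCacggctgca
Rplp0: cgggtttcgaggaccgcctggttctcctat
Rpsa: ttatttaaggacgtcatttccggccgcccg
Their positions were chr11:114668570-114668599 on the plus strand for Rpl38, chr14:18270967-18270996 (minus) for Rpl15 and chr3:90213629-90213658 (minus) for Rps27. Those of Rplp2, Rpl12 and Rpl22l1, all on the plus strand, were chr7:141447641-141447670, chr2:32961702-32961731 and chr3:28805498-28805527. The windows of Rplp0, at chr5:115559457-115559486, and Rpsa, at chr9:120127756-120127785, both on the plus strand, held no such run that begins within 10 bases of the start.

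A C followed by at least 4 pyrimidines stood at the annotated first base itself in 14 of 64 member genes (21.9%), as in Rpl38, Rpl15, Rps27 and Rplp2, against 3.01% of 27025 genes with an entry. In Rpl12 and Rpl22l1 the run began 2 and 3 bases after the annotated start. A run that began within 10 bases of the start was found in 40 members (62.5%), against 34.8% of genes. In the window from 250 bases before to 50 after the start, read on both strands, the core motif of ETS factors, CCGGAAG, stood in 25 members (39.1%) against 9.93% of genes. Read on the other strand this motif opens with pyrimidines, so matches of both searches can overlap. The YY1 core AAGATGGC stood in 6 members (9.38%) against 3.19%, and TATAAA in 8 (12.5%) against 15.7%. These are matches of letters at annotated starts, and describe neither binding nor the cap site used in these cells. The tested members with a run at the first base (13) had a log2 fold change of -0.077 in the median, and those without one (47) of -0.16.

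No ribosomal protein gene passed the test between SCD1 inhibitor and DMSO. On the log2 scale of values plus 25.8, limma with Benjamini-Hochberg adjustment called 0 of 81 members higher and 0 lower at an adjusted p of 0.05, where the background over all 13810 genes tested was 1.36% higher and 0.427% lower. At an unadjusted p under 0.05, 0 members were higher (background 8.16%) and 10 lower (background 5.92%). The members' values moved with single libraries. Their median log2 fold change was -0.27 without DMSO replicate 1, against -0.0095 over all genes tested. It was -0.023 without DMSO replicate 2, against -0.00087. edgeR on the recovered reads also called 0 (background 0.0654%), and DESeq2 called 0 of the 72 members to which it gave an adjusted p (background 7.06%). Every tested member differed by less than 1.5-fold between the group means on the fitted scale.

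The members nevertheless lay mostly on 1 side. The log2 fold change was negative for 62 and positive for 19 of the 81, with a median of -0.12 (interquartile range -0.23 to -0.008), while 49.3% of all genes tested were negative and their median was 0.0056. The members were close together: the SD of their log2 fold changes was 0.20, against 0.42 over all genes tested. It was 0.33 over the 9167 other genes within the members' range of mean values. Those genes had a lower median level, 1246 normalised reads against 1936 for members. Between replicates the members were also closer together than those genes, with SDs of 0.25 against 0.294 (inhibitor) and 0.314 against 0.387 (DMSO). The part of read level in this spread was not tested. Both inhibitor values lay below both DMSO values in 27 members (background 22.2%), and above them in 2, Rpl37 and Rps25 (background 22.7%). Large and small subunit genes had the same median, -0.12, with 37 of 49 and 25 of 32 negative. The 85 members summed to 194184 and 187486 normalised reads with the inhibitor, against 195139 and 230002 with DMSO. That was 0.752% and 0.727% of all reads with the inhibitor, with 95% Wilson intervals of 0.749% to 0.756% and 0.723% to 0.730%, against 0.748% and 0.896% with DMSO (0.745% to 0.751% and 0.892% to 0.899%). The intervals cover counting error only. In share the groups overlapped: the first DMSO library lay between the inhibitor libraries, and the second above all. In summed normalised reads both DMSO libraries lay above both inhibitor libraries, the first only just, so the overlap depends on the scale. The mean share was 0.74% ± 0.018 with the inhibitor and 0.822% ± 0.105 with DMSO (SD, n = 2 each), a difference of -0.0823 percentage points. With 2 against 2 samples an exact two-sided permutation test cannot go below p = 0.333. In such bulk samples, fewer cells of a type with many ribosomes and fewer ribosomal protein transcripts per cell cannot be told apart.

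**Figure D1:**
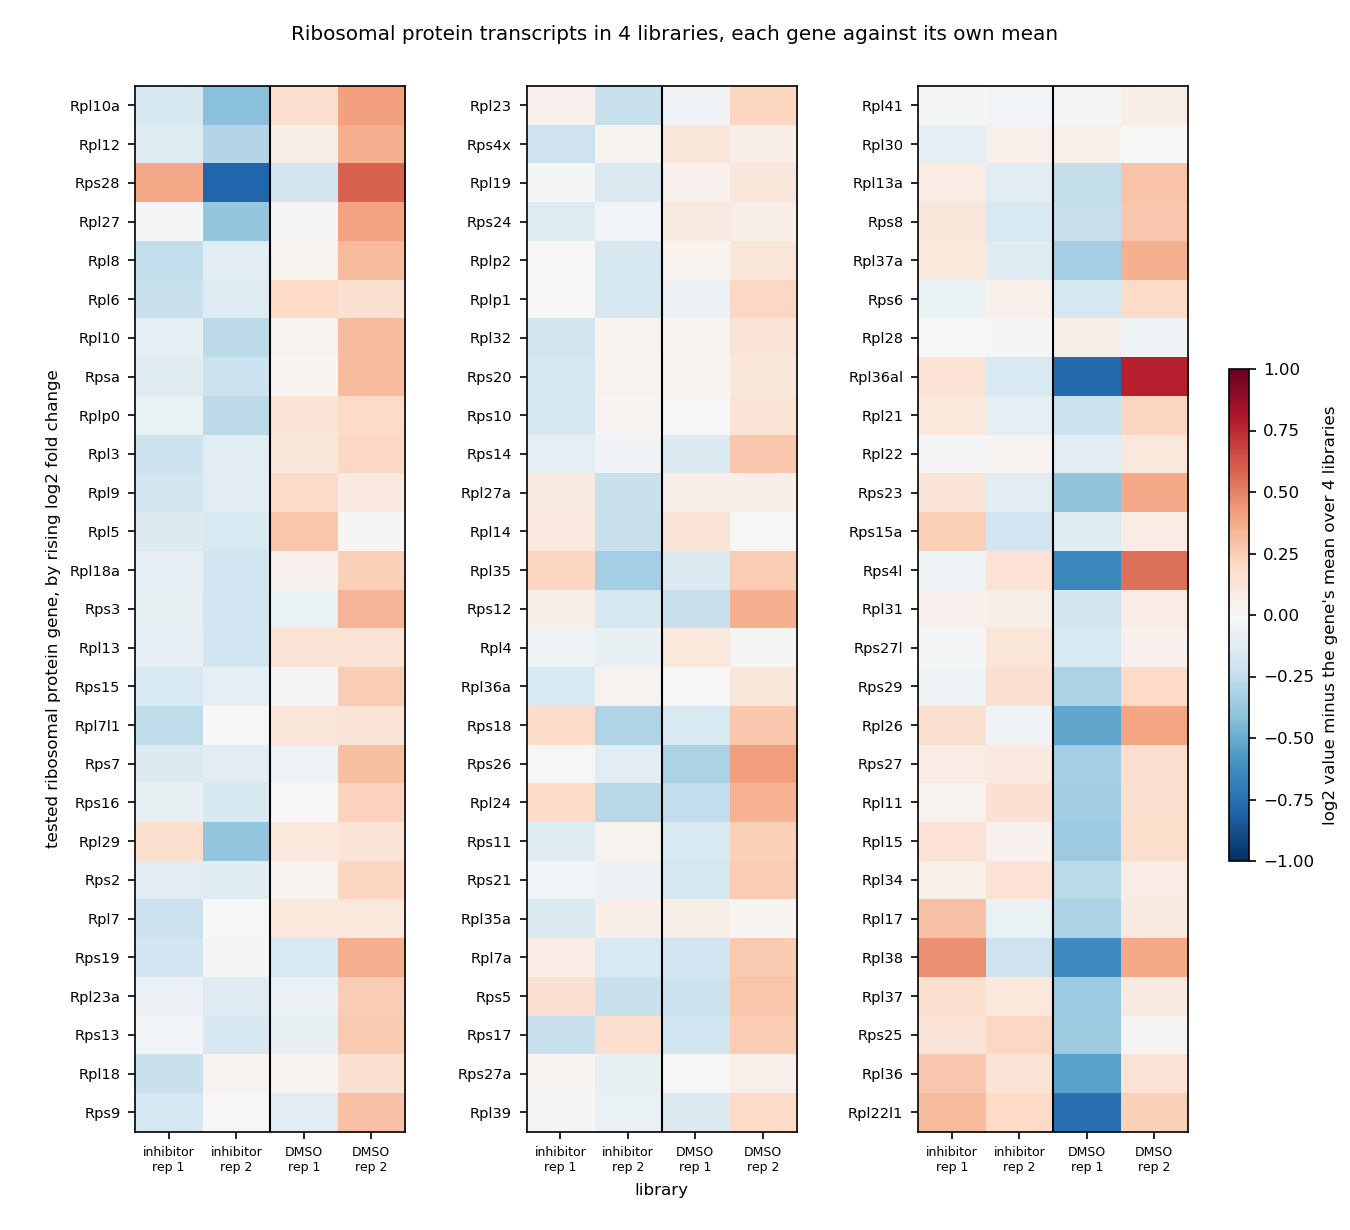
Heat map of the 81 tested ribosomal protein genes, ordered by log2 fold change from the top of the left panel (Rpl10a) to the bottom of the right panel (Rpl22l1). Columns are the 2 inhibitor and the 2 DMSO libraries, and colour is each gene's log2 value (plus 25.8) minus its own mean over the 4 libraries; the DMSO replicate 2 column is red in most rows.

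Much of this pattern moved with the second DMSO library. DMSO replicate 2 held the highest of the 4 values for 59 of the 81 members (72.8%), against 27.6% of all genes tested. Replicate 2 minus replicate 1 had a median log2 difference of 0.30 over members within the DMSO group, with 69 of 81 positive (85.2%), against a median of -0.014 and 48.4% positive over all genes tested. Within the inhibitor group the median was -0.073, with 32 of 81 positive. In 51 of the 81 members the 2 DMSO libraries lay further apart than the group means did. Single libraries vary more than group means, and the share over all genes was not counted. That count is therefore no result about the members. The shift was seen in both subunits, with DMSO medians of 0.26 in large subunit genes (39 of 49 positive) and 0.40 in small subunit genes (30 of 32). Without DMSO replicate 2 the median log2 fold change of members was -0.023, with 43 negative. Without DMSO replicate 1 it was -0.27, with 73 negative. The median also moved with an inhibitor library: it was -0.068, with 51 negative, without inhibitor replicate 2. Leaving out inhibitor replicate 1 gave -0.13, with 62 negative.

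**Figure D2:**
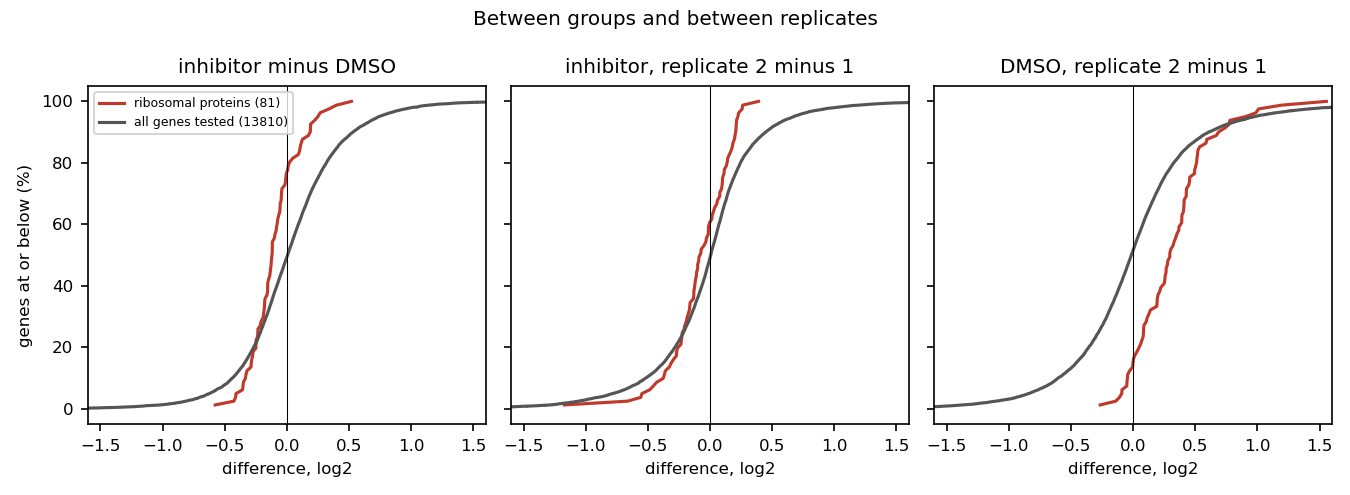
Cumulative percentage of genes (vertical axis) at or below a given log2 difference (horizontal axis), for the 81 ribosomal protein genes (red) and all 13810 genes tested (grey). The members are shifted to the left between groups (median -0.12) and further to the right between the DMSO replicates (median 0.30), and they span a narrower range than all genes.

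Without DMSO replicate 1 the lone remaining library is assumed to vary as the inhibitor libraries did, and limma then called 5 members lower (background 1.3%). They were Rpl8 (log2 fold change -0.50, adjusted p = 0.0156), Rps3 (-0.48, adjusted p = 0.0234), Rpl12 (-0.57, adjusted p = 0.0296), Rpsa (-0.48, adjusted p = 0.0321) and Rpl10a (-0.70, adjusted p = 0.0469). With all 4 libraries their adjusted p lay between 0.162 for Rpl10a and 0.406 for Rps3. Without DMSO replicate 2 no member was called, and the smallest adjusted p among them was 0.0851.

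Among large subunit genes the lowest log2 fold change belonged to Rpl10a, the protein uL1 of the mobile stalk where tRNA leaves the ribosome. Rpl10a was at 1107 and 919 normalised reads with the inhibitor against 1389 and 1657 with DMSO, without overlap between the groups. The log2 fold change was -0.58 ± 0.18 (SE), 1.49-fold lower, with limma's adjusted p = 0.162. Rpl12, the protein uL11 at the base of the P stalk, was at 2197 and 1955 normalised reads against 2519.6 and 3098 with DMSO (log2 fold change -0.43 ± 0.15, adjusted p = 0.211). Here too the groups did not overlap, and the lower DMSO value was replicate 1.

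Rpl8, the protein uL2 beside the peptidyl transferase centre, was among the 5 members with the most reads, which also depend on transcript length. Rpl8 was at 6031 and 6609 normalised reads with the inhibitor against 7340.3 and 8913 with DMSO (log2 fold change -0.36 ± 0.12, adjusted p = 0.2). Rpl6 was at 3469 and 3719 against 4677 and 4514 (log2 fold change -0.35 ± 0.12, adjusted p = 0.192). Rpl6 was one of the members in which the DMSO replicates were close, 0.051 apart on the log2 scale, so its difference does not rest on DMSO replicate 2: its log2 fold change was -0.33 without DMSO replicate 1 and -0.38 without replicate 2. Rpl10, which shapes the binding site of tRNA in the large subunit and is loaded late in its maturation, was at 2141 and 1893 normalised reads against 2335 and 2833 with DMSO (log2 fold change -0.35 ± 0.15, adjusted p = 0.32). Rpl27 was at 1163 and 896 against 1187 and 1567 (log2 fold change -0.41 ± 0.20, adjusted p = 0.398), and its first libraries of the 2 groups were nearly level.

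Rpl5, which with Rpl11 and the 5S ribosomal RNA forms the particle that binds Mdm2, and Rpl9 were named after their values were seen, as the remaining members with an unadjusted p under 0.05. Rpl5 was at 3922 and 3886 normalised reads with the inhibitor against 5228 and 4348 with DMSO (log2 fold change -0.29 ± 0.13, limma's adjusted p = 0.336). Rpl9 was at 3506 and 3705 against 4549.8 and 4270.4 (log2 fold change -0.29 ± 0.12, adjusted p = 0.305). In both genes the higher DMSO value was replicate 1, the reverse of the usual order among members. The full set of 10 was Rpl10a, Rpl6, Rplp0, Rpl8, Rpl12, Rpl3, Rpsa, Rpl9, Rpl10 and Rpl5, which are 9 large subunit genes and 1 of the small subunit. None of the 10 overlapped between groups, but they were chosen by p from these same values, so that is no separate result.

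The P stalk, formed by Rplp0 and dimers of Rplp1 and Rplp2, recruits the elongation factors. Rplp0 was at 7343 and 6434 normalised reads with the inhibitor against 8462 and 8822 with DMSO (log2 fold change -0.33 ± 0.11, limma's adjusted p = 0.199), and its groups did not overlap. Rplp1 was at 5546 and 4962 against 5326 and 6406 (log2 fold change -0.15 ± 0.13, adjusted p = 0.646), with overlap. Rplp2 was at 1817 and 1621 against 1858 and 1971 (log2 fold change -0.15 ± 0.15, adjusted p = 0.712), just without overlap. The 3 stalk genes were thus all lower in mean with the inhibitor, none past the test. Rpl4, the member with the most reads, was at 8624 and 8455 against 9561 and 8985 (log2 fold change -0.12 ± 0.11, adjusted p = 0.681), and Rpl3, which lines the peptidyl transferase centre, at 4778 and 5131 against 6008 and 6384 (log2 fold change -0.32 ± 0.12, adjusted p = 0.218).

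The large subunit also held most of the highest log2 fold changes. Rpl36 was at 632 and 574 normalised reads with the inhibitor against 352 and 575 with DMSO (log2 fold change 0.40 ± 0.28, limma's adjusted p = 0.586). Rpl37 was at 978 and 944 against 674 and 934 (log2 fold change 0.27 ± 0.22, adjusted p = 0.638). Rpl38, which is needed in mouse embryos for the translation of a subset of Hox mRNAs, was at 892 and 554 against 406 and 844 (log2 fold change 0.25 ± 0.33, adjusted p = 0.794). In these 3 genes DMSO replicate 1 was the low library and DMSO replicate 2 lay close to the inhibitor values. The same held for Rpl34 (1853 and 1978 normalised reads with the inhibitor against 1484 and 1889 with DMSO) and Rpl15 (1476 and 1376 against 1031 and 1505), both with a log2 fold change of 0.19, and for Rpl17 (2509 and 1951 against 1639 and 2183, log2 fold change 0.22). None had an adjusted p under 0.586 among these 6.

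Among small subunit genes, Rps25 stood out at the high end. Rps25, which in human cells and yeast is needed by some viral internal ribosome entry sites, was at 2072 and 2189 normalised reads with the inhibitor against 1476 and 1911 with DMSO. Both inhibitor values were above both DMSO values, and the log2 fold change was 0.34 ± 0.16 (limma's adjusted p = 0.381). Rps28, whose transcript of 271 nt is the shortest of the members, lay at the other end with values that did not separate the groups. It was at 982 and 422 normalised reads with the inhibitor against 658 and 1144 with DMSO (log2 fold change -0.41 ± 0.35, adjusted p = 0.652). The inhibitor libraries of Rps28 differed by -1.17 on the log2 scale, the largest difference of any member within that group, and its log2 fold change was 0.17 without inhibitor replicate 2.

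Rpsa, the laminin receptor precursor that sits on the 40S subunit as uS2, was at 3683 and 3463 normalised reads with the inhibitor against 4066 and 4996 with DMSO (log2 fold change -0.33 ± 0.13, limma's adjusted p = 0.28), without overlap. Rps3, a protein of the mRNA entry channel that also acts in DNA repair, was at 5427 and 4959 against 5456 and 7235 (log2 fold change -0.28 ± 0.14, adjusted p = 0.406). Its first libraries of the groups were nearly equal, and DMSO replicate 2 was the high one. Rps14, at 6193 and 6435 against 5995 and 7973 (log2 fold change -0.13 ± 0.14, adjusted p = 0.727), overlapped between the groups.

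**Figure D3:**
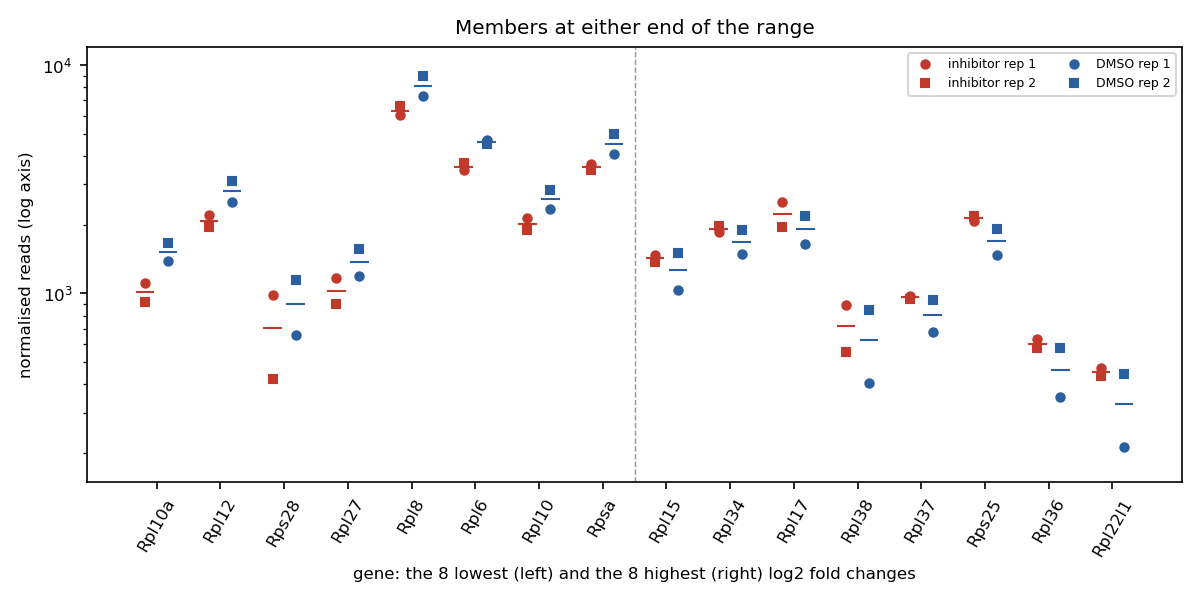
Normalised reads (log axis) of the 8 members with the lowest (left of the dashed line) and the 8 with the highest log2 fold change (right), with inhibitor libraries in red, DMSO libraries in blue, replicate 1 as circles, replicate 2 as squares and group means as bars. On the right, DMSO replicate 1 is the lowest library of every gene, as for Rpl22l1 with 212 against 434 to 473 in the others.

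Levels of different genes were compared per kilobase of transcript. The length was that of the shortest coding transcript with a consensus coding sequence, or of the shortest coding transcript where none had one. On the scale of normalised reads per kilobase, averaged over the 4 libraries, Rplp1 (11142) and Rps14 (11137) were highest, followed by Rpl8 (8488), and the median of the tested members was 2974, against 311 over all genes tested. Rpl36al (581) and Rpl22l1 (745), both paralogs, were near the low end. Rps20 was lower still at 357, but its only coding transcript with a consensus coding sequence is annotated at 3706 nt. That makes the value uncertain, and also the place of Rps20 among the longest members below.

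Paralogs of ribosomal proteins can replace the common form in some tissues. Rpl10l, which in mice is expressed in the testis in place of the X-linked Rpl10, was listed at 0 in all 4 libraries. Rpl3l, the form of heart and skeletal muscle, was listed at 0 and 28.3 normalised reads with the inhibitor against 19.5 and 0 with DMSO. Rpl39l, known from male germ cells in mice, was at 0 and 17.8 against 0 and 0, and Rpl32l, annotated as a pseudogene, at 1.91 and 9.44 against 17.5 and 0.991. Their partner genes Rpl10, Rpl3, Rpl39 and Rpl32 averaged 2301, 5575, 464 and 2259 normalised reads over the 4 libraries. The restricted forms were thus at or under the floor for testing in these airway cells, and no fold is given for them.

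Rpl22l1 had the highest log2 fold change of the members. In other mouse tissues the Rpl22 protein is known to hold its own paralog's mRNA down. Rpl22l1 was at 473 and 434 normalised reads with the inhibitor against 212 and 445 with DMSO, so the value of DMSO replicate 2 lay among those of the inhibitor (log2 fold change 0.52 ± 0.35, limma's adjusted p = 0.557). Rpl22 was at 2438 and 2502 against 2273 and 2642, a log2 fold change of 0.011 ± 0.14. Per kilobase, Rpl22l1 made up 14.9% and 13.5% of the pair with the inhibitor against 7.75% and 13.2% with DMSO. The coding sequences of the pair are 68.2% identical.

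Of the other paralogs, Rpl36al differed most between replicates. It was at 314 and 252 normalised reads with the inhibitor against 154 and 502 with DMSO, a DMSO replicate difference of 1.55 on the log2 scale and the largest of any member, with a log2 fold change of -0.0043 ± 0.45. Rpl36al made up 30.1% and 23.2% of the pair with Rpl36a per kilobase with the inhibitor, against 15.9% and 36.3% with DMSO, and the coding sequences are 87.9% identical, so reads of the pair may be split. Rps27l, a target of p53, held 35.7% and 37.7% of the pair with Rps27 per kilobase with the inhibitor against 40.4% and 35.2% with DMSO, and its log2 fold change was 0.11 ± 0.17. Rpl7l1 held 17.5% and 18.1% of the pair with Rpl7 against 18.1% and 18.3%, the most even of the pairs. Rps4l, annotated as a pseudogene of Rps4x, was at 269 and 314 normalised reads against 171 and 423, while Rps4x was at 4161 and 4887 against 5179 and 5018 (log2 fold change -0.18 ± 0.12, limma's adjusted p = 0.582).

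Reads of these genes are hard to assign. GENCODE M21 lists 294 pseudogenes named for ribosomal proteins, 29 members contain 57 snoRNA genes within their bounds, and 24 overlap a gene on the other strand. How reads with several matches were counted, and whether strand was used, is not given in the sources used here. Rps27 is an example: Rps27rt, a retrogene copy, had 1721 and 1732 normalised reads with the inhibitor against 1288 and 1791 with DMSO, and Rps27 had 1728 and 1749 against 1288 and 1837. The values of the copies are nearly the same in each library, and are uncertain for both.

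Ribosomal protein transcripts are short, and both differences moved with transcript length. With 80 tested members divided by length, the 27 shortest (median 491 nt) had a median log2 fold change of -0.056, the 27 of middle length (680 nt) of -0.10 and the 26 longest (1134 nt) of -0.20, with 24 of those 26 negative. Both inhibitor values lay below both DMSO values in 5, 7 and 15 of them in the same order (background 22.2%). The longest members also had the most reads, with medians of 1650.3, 1844 and 3675 normalised reads in that order. The part of read level in these counts was not tested. The DMSO replicate difference had medians of 0.34, 0.35 and 0.21, lowest in the longest genes too. Across members, Spearman's rho with length was -0.42 for the log2 fold change and -0.29 for the DMSO replicate difference (n = 80 genes, which share the same 4 libraries). Over all 13021 genes tested with a length the rho values were 0.066 and -0.19.

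Other short genes shared the replicate difference but not the group difference. In 416 other genes of up to 700 nt, DMSO replicate 2 minus replicate 1 had a median of 0.25, with 70% positive, and the log2 fold change a median of 0.065. In 925 others of more than 700 and up to 1100 nt these medians were 0.14 and -0.011, and in 11600 longer genes -0.031 and 0.00086. The part of transcript length in the members' values was not tested.

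**Figure D4:**
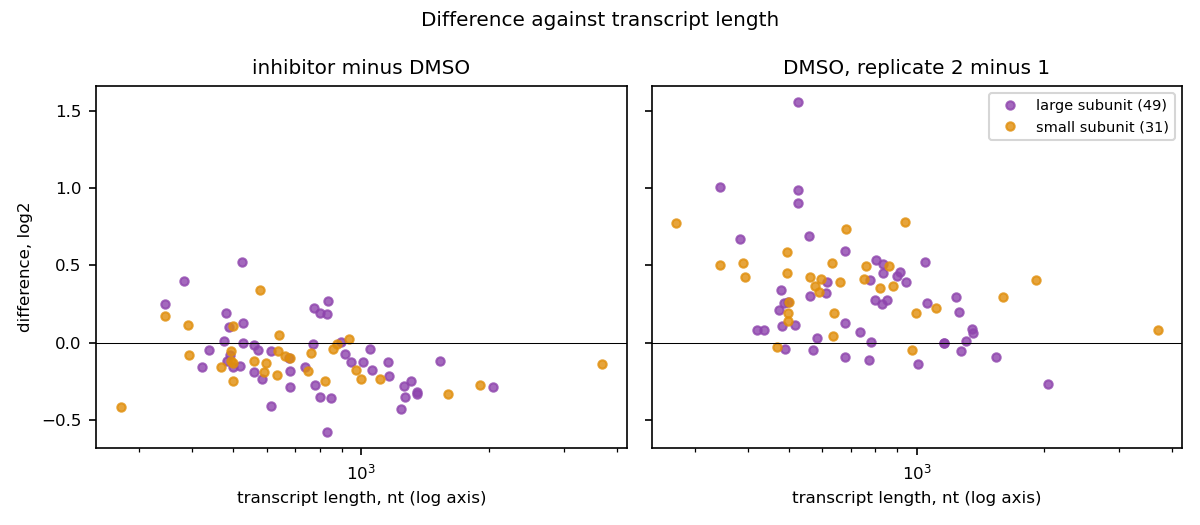
Log2 difference (vertical axis) against transcript length in nucleotides (log axis) for large subunit (49, purple) and small subunit (31, orange) genes, on the left SCD1 inhibitor minus DMSO and on the right DMSO replicate 2 minus replicate 1. The left panel slopes downward, from a median of -0.056 in the shortest genes to -0.20 in the longest, and the DMSO replicate differences lie mostly above 0 at every length.

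Some ribosomal proteins fall outside the symbol rule. Rack1, the scaffold protein at the head of the 40S subunit, was at 5560.2 and 6063 normalised reads with the inhibitor against 7608 and 8181 with DMSO, without overlap (log2 fold change -0.44 ± 0.11, limma's adjusted p = 0.0743, and 0.00459 in DESeq2). Fau, which encodes a ribosomal protein fused to a ubiquitin-like protein, had a log2 fold change of -0.087 ± 0.18. Rps27rt, described above, lay on the other side at 0.18 ± 0.18. Of this list 5 genes were tested and not all are shown, so Rack1 and Fau do not give its direction.

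Among the factors that work with the ribosome, Eef2, which moves the ribosome along the mRNA and is itself a TOP mRNA, fell. Eef2 was at 32259 and 31576 normalised reads with the inhibitor against 44936 and 42921 with DMSO (log2 fold change -0.46 ± 0.10, limma's adjusted p = 0.0417). It was the 1 of 10 elongation genes that passed, and the list's median was -0.22 with 7 of 10 negative. The next by p was Eef1g, a subunit of the complex that reloads elongation factor 1A, with a log2 fold change of -0.36 (adjusted p = 0.218). Between the DMSO replicates the median difference of the elongation genes was 0.012. Of 30 initiation genes, 1 passed: Eif3a, the largest subunit of the factor that binds the 40S subunit, rose and was at 7371 and 6947 normalised reads against 4859 and 4040.4 (log2 fold change 0.69 ± 0.12, adjusted p = 0.017). The median of that list was -0.055, and Eif5b, which joins the subunits, stood at 0.65 on the same scale (adjusted p = 0.0755, and 0.0226 in DESeq2). The value of Eif5b was 0.92 without DMSO replicate 1 (limma's adjusted p = 0.000368) and 0.38 without DMSO replicate 2 (0.157).

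In the list for the quality control of stalled ribosomes and for ubiquitin ligases that act on ribosomal proteins, 2 of 16 genes passed, both higher. Nemf, which binds 60S subunits that hold a stalled chain, rose and was at 1319 and 1529 normalised reads with the inhibitor against 621 and 581 with DMSO (log2 fold change 1.21 ± 0.20, limma's adjusted p = 0.0102). Ascc3, a helicase that splits collided ribosomes, rose and was at 1681 and 1550.5 against 861 and 999 (log2 fold change 0.78 ± 0.18, adjusted p = 0.044). The 4 calls of Eef2, Eif3a, Nemf and Ascc3 did not hold in edgeR, where the adjusted p was 0.0724 to 0.137, or in limma when either inhibitor library was left out, where it was 0.212 to 0.568, or without the intensity trend, where it was 0.45 to 0.47. Without a floor Nemf alone passed (the others 0.0539 to 0.136), Ascc3 was lost with TMM scaling (0.0529) and a pseudocount of 0.1 CPM (0.0547), and Eef2 with one of 5 CPM (0.0514). In DESeq2 all 4 had an adjusted p of at most 0.0109.

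The other lists held no passing gene. The 78 mitochondrial ribosomal proteins, which form the separate ribosome of that organelle, had a median log2 fold change of -0.095 with 43 negative, and a DMSO replicate difference of 0.16 with 54 of 78 positive. Mrpl36 and Mrpl28 had the smallest p among them, with log2 fold changes of -0.78 and -0.69 (limma's adjusted p = 0.219 and 0.223). The 63 ribosome biogenesis genes had a median log2 fold change of -0.12 with 37 negative, the same median as the cytosolic ribosomal proteins, but their DMSO replicate difference was -0.055. Rrs1 and Bop1, both needed to assemble the large subunit, had the smallest p, with log2 fold changes of -0.68 and -0.59 (adjusted p = 0.191 and 0.211). A list of further mRNAs known to carry the TOP motif held neither ribosomal proteins nor the elongation factors with that motif, such as Eef2, which stand in the elongation list with its median of -0.22. Of these further mRNAs 13 were tested, with a median of 0.088 and 10 positive. In that list Tpt1 was at -0.24 (adjusted p = 0.36). Snhg12, a host gene of snoRNAs with 106 and 103 normalised reads with the inhibitor against 57.5 and 5.95 with DMSO, was at 1.34 (adjusted p = 0.34). Near the floor its log2 fold change moved with the setting, from 0.56 to 2.24 with pseudocounts of 5 and 0.1 CPM, and was 2.03 without DMSO replicate 1 and 0.64 without replicate 2. The 19 regulators, among them mTORC1 subunits, Myc and Larp1, had a median of -0.065 with 14 negative. Tsc2, an inhibitor of mTORC1, was at -0.36 and Larp4b at 0.30 (adjusted p = 0.183 and 0.313). The DMSO replicate medians of the regulators and of the quality control list were -0.14 and -0.11, similar in size to that of the mitochondrial ribosomal proteins and opposite in sign. The median difference between groups lay between -0.22 and 0.088 in all 8 lists.

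**Figure D5:**
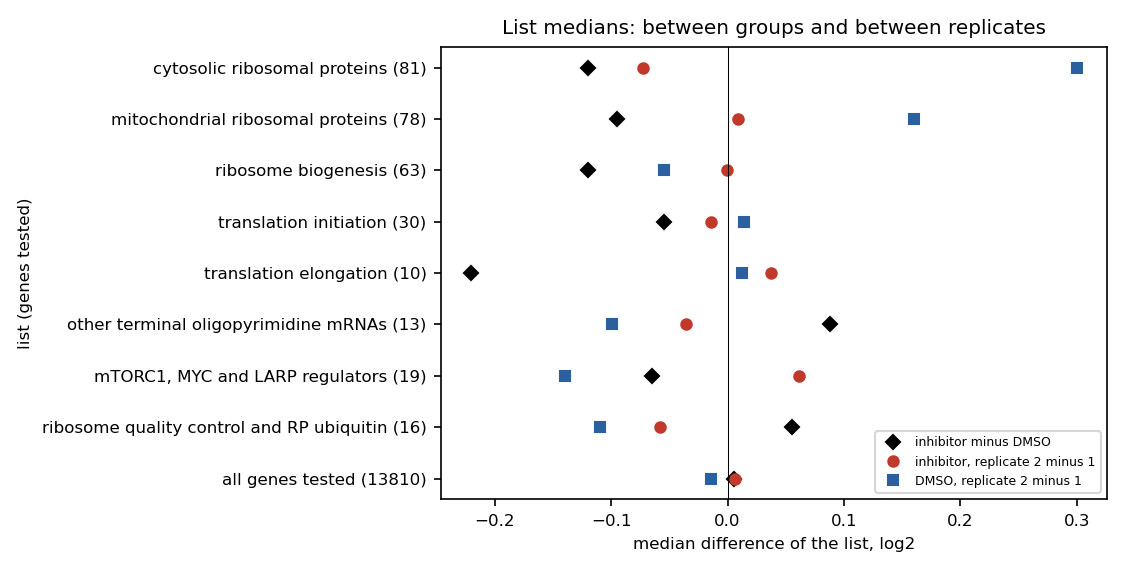
Median log2 difference of each list (rows, with the number of genes tested) for SCD1 inhibitor minus DMSO (black diamonds), inhibitor replicate 2 minus 1 (red circles) and DMSO replicate 2 minus 1 (blue squares). The DMSO replicate median is 0.30 for cytosolic and 0.16 for mitochondrial ribosomal proteins, and the group median is lowest for elongation genes (-0.22).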

How the data were processed

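Total RNA of 4 samples of sorted airway epithelial cells was sequenced after a strand-preserving library preparation, per the labels' protocols. The deposited signal values are, as their spacing shows, each gene's reads over a factor that scales its library: each value is a whole multiple of 1 step (100% within 0.01 of a whole number), which for DMSO replicate 2 lies close to 1. HOMER, DESeq2 and the build mm10 are named in the submitters' processing notes, without versions. Not given in the sources used here are the aligner, the treatment of reads with several matches and the use of strand.

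The table was fitted whole with limma 3.58.1 (R 4.3.3) with an intensity trend, on log2(value + 25.8), for 13810 genes with a mean of at least 25.8 (1 CPM at the mean library total), with the group as the term. Fold changes are on that scale, which understates those of low genes. P-values were adjusted by Benjamini-Hochberg over all genes tested, with a threshold of 0.05. Reads recovered by dividing by the step went into edgeR 4.0.16 and DESeq2 1.42.0 as alternatives. The scripts were tested on simulated data. At 1000 reads the counting error of 1 library is 3.16%, and at the floor 19.7%.

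The members and lists were chosen with earlier results of these data known. Genes named are the 8 highest and 8 lowest members, the 5 with the most reads, the stalk genes and Rpsa, paralogs and their partners, the 3 largest replicate differences per group, and in other lists passing genes and the 2 of smallest p. Rpl5, Rpl9, Rps20, Fau, Rps27rt and Rn45s were named after their values were seen. A gene that this rule names is not reported here. Transcript lengths are from GENCODE M21 (GRCm38) and sequences from RefSeq (GRCm38.p6). The replicate numbers were not taken to pair samples. Figures were drawn with matplotlib 3.10.9 in Python 3.11.15, and tables with numpy 2.4.6 and pandas 2.3.3.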

Additional observations from a re-analysis of the deposited data

How the results depend on the processing

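No ribosomal protein gene was called under the replicate block, other pseudocounts, floors or scalings, limma without trend, edgeR or DESeq2. Their smallest adjusted p under these was 0.052, with the block. With single libraries left out, 0 to 5 were called lower, the 5 without DMSO replicate 1, and the median log2 fold change was -0.27 to -0.023. Over all genes, 247 were called by limma, 674 with the replicate number as a block, 64 without a floor, 0 without the trend, 10 by edgeR, 485 by DESeq2, and 5 to 795 with single libraries left out. The replicate differences of the 2 groups were hardly correlated across genes (r = 0.073). Whether same-numbered replicates share more than a number was not tested. The cause of these changes was not tested.

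Of 57 named genes, 11 changed sign under at least 1 alternative. Rpl36al had a log2 fold change of 0.014 with a pseudocount of 0.1 CPM, Rpl22 of -0.0048 in edgeR, and Rps4l of -0.042 in edgeR and -0.026 in DESeq2. With single libraries left out the lowest and highest log2 fold changes were -0.077 and 0.46 for Rpl15, -0.096 and 0.12 for Rpl22, -0.40 and 0.16 for Rpl35, -0.78 and 0.77 for Rpl36al, and -0.25 and 0.75 for Rpl38. They were -0.21 and 0.11 for Rpl39, -0.34 and 0.074 for Rps14, -0.079 and 0.43 for Rps27, -0.052 and 0.42 for Rps27rt, -1.0 and 0.17 for Rps28, and -0.50 and 0.69 for Rps4l. The tested members' means were 294 to 8906 normalised reads, where counting error is a few percent, while each group had 2 samples.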
